A study of Mus musculus with 15 samples.

Results

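Levels of 9 genes of ion, lactate and water transport were followed in mouse retinal pigment epithelium (RPE) with and without an edit of Prom1, the gene of the membrane glycoprotein prominin 1. The genes were chosen by symbol as known transport genes of the RPE and are Best1, Kcnj13, Clcn2, Slc16a8, Slc16a1, Slc16a3, Atp1b1, Slc12a2 and Aqp1. They are 9 of the 26509 genes listed over both count tables. All 9 were measured in RPE/choroid tissue and 8 in the cultured cells, where Slc16a8 was not analysed here. They were picked by name, with no threshold on a measured value.

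The RPE is a single layer of pigmented epithelial cells between the photoreceptors and the choroid. It moves water, chloride, potassium and lactate from the retina to the choroidal blood. Sodium and potassium gradients made by the Na,K-ATPase drive this transport, chloride enters through the cotransporter NKCC1 on the retinal side and leaves through chloride channels on the choroidal side, and monocarboxylate transporters carry lactate together with protons across both membranes. Variants of BEST1 and KCNJ13 are known causes of inherited retinal disease in people.

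RNA was sequenced from 9 libraries of cultured mouse RPE (mRPE) cells and 6 libraries of mouse RPE/choroid. The mRPE cells were pooled from C57/BL6J mice and immortalized with the viral E6 and E7 genes. A lentiviral Cas9 with puromycin selection and a Prom1 guide RNA gave 2 Prom1-KO clones, KO22 with 3 libraries and KO26 with 2, beside 4 libraries of WT cells. The study removed both KO26 libraries as outliers of a principal component analysis, for which it proposes biological heterogeneity or technical anomalies. Every comparison with KO26 here rests on these 2 libraries. Each clone is a single clone, and the sources used here do not say whether the WT cells carried Cas9 or a scrambled guide. Library 1 of WT, KO22 and KO26 has a library name of series 8995 and all other mRPE libraries have names of series 9262, which are treated here as sequencing batches. The RPE/choroid came from WT mice and from mice in which floxed Prom1 (Prom1 fl/fl) was combined with an RPE65-Cre and tamoxifen was given by gavage, with 3 libraries each. The methods give young mice of both sexes for the project, but the sources used here do not give the age at which RPE/choroid was taken or the Cre and tamoxifen status of the WT mice. The study calls mRPE libraries of a group biological replicates, but nothing states which libraries came from separate cultures or animals, so p-values measure only the spread between these libraries, which may be technical.

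Total counts were 8076188 to 27537863 per mRPE library and 48154444 to 61766179 per RPE/choroid library. Prom1 itself was not analysed here in mRPE. For its Prom1-KO mRPE lines the paper reports loss of the protein by Western blot and less transcript by qPCR. In RPE/choroid the Prom1 level was 48.7, 49.6 and 53.3 CPM (counts scaled by TMM to a common library total) in WT. It was 49.9, 48.1 and 35.5 CPM in the libraries labelled Prom1-KO, which are called so throughout. The difference did not pass edgeR's quasi-likelihood test (log2 fold change −0.18, SE 0.16, adjusted p = 0.824). Counts of mixed tissue cannot show whether Prom1 was lost in its RPE cells. The paper gives Prom1 as lower in the RPE than in the photoreceptor-rich retina. Labelled Prom1-KO library 3 stood apart: 84.2% of its counts were mitochondrial, against 64.9% to 71.3% in the other 5, and 9776466 counts were left on all other genes. Of 14 RPE marker genes, all were tested in RPE/choroid, but only Rdh5, Pmel and Mitf were tested in mRPE, where they summed to 6.40 to 22.6 CPM per library against 13600 to 18090 CPM for the fibroblast and sclera markers in WT mRPE. The mRPE libraries therefore carry the RPE label with most RPE defining genes, Rpe65 among them, not analysed here. In such bulk samples fewer cells of a type and less RNA per cell cannot be told apart.

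The promoters of the 4 members whose change passed the test against WT are shown because Slc16a1 and Slc16a3, both lactate transporters, are the pair that rose in clone KO22, while Atp1b1 fell there and Slc16a8 fell in tissue. Each runs 5′ to 3′ on the strand of its gene, from 250 bases before to 50 bases after the RefSeq start site (sequence table of GRCm38.p6). By exact match they lie on GRCm39 at chr3:104545730-104546029 (plus strand, Slc16a1), chr11:120839643-120839942 (plus strand, Slc16a3), chr1:164285875-164286174 (minus strand, Atp1b1) and chr15:79138899-79139198 (minus strand, Slc16a8). Capitals mark the letters ACGTG on either strand (CACGT on the other), the core that hypoxia-inducible factors are known to bind.
Slc16a1: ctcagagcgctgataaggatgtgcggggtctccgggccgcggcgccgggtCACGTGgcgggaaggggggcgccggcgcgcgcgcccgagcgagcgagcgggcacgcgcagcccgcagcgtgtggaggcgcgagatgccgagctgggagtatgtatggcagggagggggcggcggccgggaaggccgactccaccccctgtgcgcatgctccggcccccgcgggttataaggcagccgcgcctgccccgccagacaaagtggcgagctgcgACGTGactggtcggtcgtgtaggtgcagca
Slc16a3: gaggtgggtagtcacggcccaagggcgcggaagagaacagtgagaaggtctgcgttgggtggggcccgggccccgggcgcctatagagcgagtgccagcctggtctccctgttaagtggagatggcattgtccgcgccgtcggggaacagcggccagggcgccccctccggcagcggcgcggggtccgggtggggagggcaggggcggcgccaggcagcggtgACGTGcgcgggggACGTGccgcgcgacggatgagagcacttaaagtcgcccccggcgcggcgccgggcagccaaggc
Atp1b1: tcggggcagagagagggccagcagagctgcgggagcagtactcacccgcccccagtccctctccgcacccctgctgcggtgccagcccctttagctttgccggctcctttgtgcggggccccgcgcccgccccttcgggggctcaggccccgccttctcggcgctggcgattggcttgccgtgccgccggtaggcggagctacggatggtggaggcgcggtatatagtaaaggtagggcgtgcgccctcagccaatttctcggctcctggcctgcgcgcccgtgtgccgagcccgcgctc
Slc16a8: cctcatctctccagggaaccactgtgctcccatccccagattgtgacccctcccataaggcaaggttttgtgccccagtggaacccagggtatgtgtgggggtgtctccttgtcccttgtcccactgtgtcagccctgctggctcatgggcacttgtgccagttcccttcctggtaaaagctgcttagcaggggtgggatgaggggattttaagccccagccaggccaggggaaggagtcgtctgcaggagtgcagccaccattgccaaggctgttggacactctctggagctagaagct
ACGTG was found 3 times in the Slc16a1 promoter, where a CACGTG holds overlapping matches on both strands, and 2 times in that of Slc16a3. It was absent from these windows of Atp1b1 and Slc16a8. Of the 8 members with a promoter in the table, 3 held ACGTG (Kcnj13 was the third), against 19.6% of 32851 promoters of the same length. CATGTG, or on the other strand CACATG, the E-box known for the pigment cell factor MITF, was in 1 of 8, Kcnj13, against 14.2%, and GGATTA, or TAATCC on the other strand, known for OTX2, was in 1 of 8, Best1, against 7.06%. These motifs were chosen with the results known, and a match is a description of the letters only.

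To set levels of different genes side by side, CPM was divided by the length of the canonical transcript in kb. In WT RPE/choroid the highest level per kb was that of Atp1b1, at 21.0 ± 7.16 CPM per kb (SD, n = 3). Kcnj13 followed at 15.5 ± 1.53, Slc16a8 at 13.2 ± 2.09, Slc12a2 at 9.62 ± 0.436 and Aqp1 at 9.39 ± 0.828 CPM per kb. Slc16a1 had 4.47 ± 1.38, Clcn2 2.11 ± 0.160, Best1 0.689 ± 0.175 and Slc16a3 0.230 ± 0.0488 CPM per kb. The library ranges of Atp1b1, Kcnj13 and Slc16a8 overlapped, as did those of Slc12a2 and Aqp1, and all other neighbours in this order were separate. With the length of all exons instead, Kcnj13 (15.5 CPM per kb) came before Atp1b1 (11.2 CPM per kb).

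In WT mRPE the order was Atp1b1 (19.9 ± 5.86 CPM per kb, n = 4), Slc12a2 (12.4 ± 1.74), Aqp1 (10.5 ± 5.60), Slc16a1 (5.40 ± 2.00), Clcn2 (2.82 ± 0.267), Best1 (1.72 ± 0.247), Kcnj13 (1.66 ± 0.215) and Slc16a3 (0.916 ± 0.272). Neighbours from Atp1b1 to Slc16a1 overlapped in their library ranges, as did Best1 and Kcnj13. Kcnj13, the inwardly rectifying potassium channel Kir7.1 of the RPE apical membrane, was at 15.5 CPM per kb in WT tissue and 1.66 CPM per kb in WT mRPE with either length, at levels that come from separately normalized tables and were not tested against each other. In clone KO22 the order was different, with the lactate transporters Slc16a1 (14.5 ± 0.970 CPM per kb, n = 3) and Slc16a3 (11.7 ± 2.43) at the top and Atp1b1 at 3.97 ± 0.801 CPM per kb. The library range of Slc16a3 overlapped those of Slc16a1, Aqp1 and Slc12a2. With the length of all exons Slc16a3 (4.86 CPM per kb) came after Slc16a1 (12.6), Aqp1 (10.1) and Slc12a2 (5.89).

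**Figure D1:**
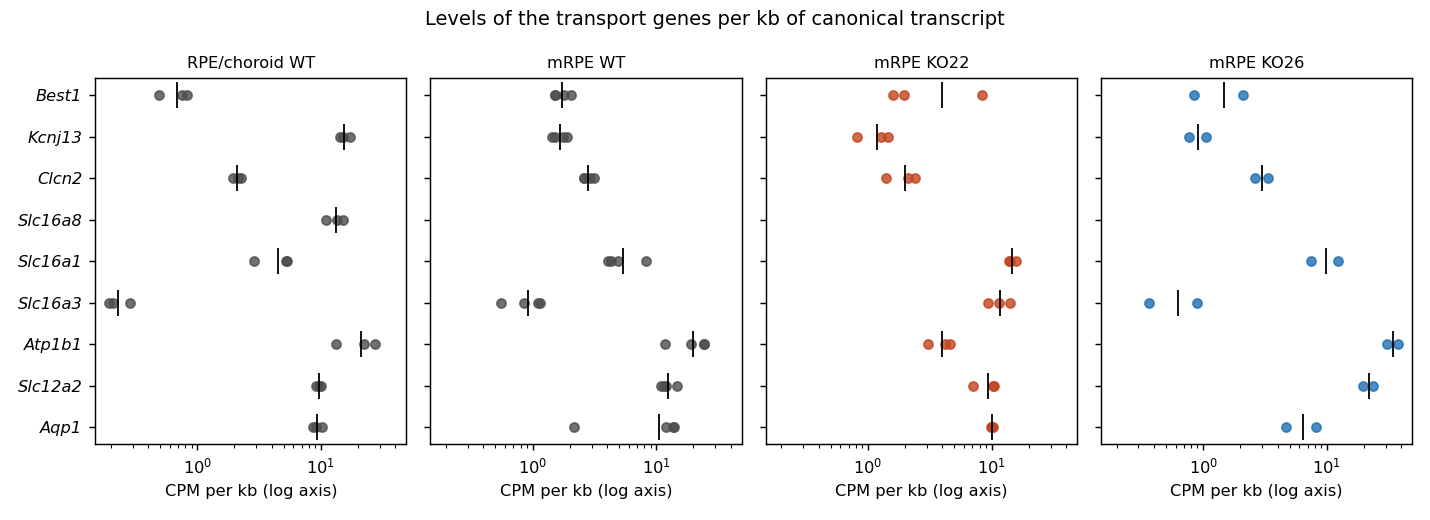
CPM per kb of canonical transcript (log axis) of each transport gene in WT RPE/choroid and in WT, KO22 and KO26 mRPE cells. Points are libraries and vertical ticks are group means. Slc16a3 has the lowest mean in WT RPE/choroid (0.230), WT mRPE (0.916) and KO26 (0.625) and in KO22 a mean of 11.7, which is 4.86 with the length of all exons.

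Clone KO22 was compared with WT cells to ask how the transport genes differ in cells edited at Prom1. The lactate transporters Slc16a3 and Slc16a1 rose, by 13.1-fold and 2.7-fold, and Atp1b1, the beta 1 subunit of the Na,K-ATPase, fell by 4.72-fold. A gene was called higher or lower at an adjusted p under 0.05 and a log2 fold change over 1.2 in either direction, by edgeR's quasi-likelihood test with Benjamini-Hochberg adjustment over all genes tested. Of the 8 members tested 2 were higher, against 11.4% of the 20455 genes tested, and 1 was lower, against 13.8%, and the same counts were found with DESeq2. The members' median log2 fold change was −0.04 and that of all genes tested −0.03.

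In clone KO26 no member was called against WT by edgeR's quasi-likelihood test, either higher (1.21% of 20737 genes) or lower (0.719%). DESeq2 likewise called 0, while 3 members were higher and 1 was lower at an unadjusted p under 0.05, as were 11.1% and 9.02% of all genes. The median log2 fold change of the members was −0.07 and that of all genes tested 0.03. Compared directly, the clones differed: Slc16a3 was higher in KO22 than in KO26, as were 7.56% of all genes, and Atp1b1 and Slc12a2 were lower, as were 10.7%. That is 1 of 8 members higher and 2 lower, with the same counts by DESeq2, and a median log2 fold change of 0.49 against 0.00 over all genes tested. All comparisons of mRPE share libraries, so their values are not independent.

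**Figure D2:**
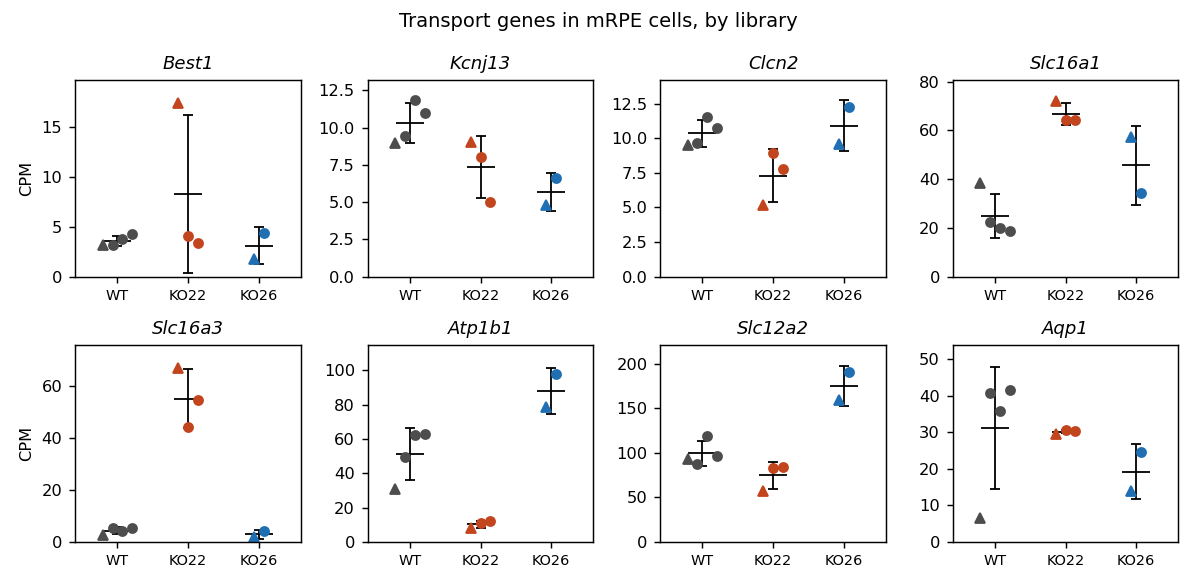
CPM (linear axis) of 8 transport genes in each mRPE library. Triangles are batch 8995 and circles batch 9262, and horizontal bars with whiskers are the group mean ± SD (n = 4 WT, 3 KO22, 2 KO26). Slc16a3 lies at 43.9 to 66.7 CPM in KO22 and at 1.72 to 5.42 CPM in all other libraries, and Atp1b1 lies at 7.95 to 12.0 CPM in KO22 and at 30.5 CPM or more elsewhere.

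The channels come first. Best1 (chromosome 19, 9962538 to 9978997, GRCm39), the calcium-activated chloride channel bestrophin 1 of the basolateral membrane, was at 3.18, 3.15, 3.73 and 4.23 CPM in WT, 17.4, 4.05 and 3.34 CPM in KO22, and 1.76 and 4.39 CPM in KO26. A single KO22 library, that of batch 8995, was high, and the other 2 lay within or next to the WT range. KO22 against WT gave a log2 fold change of 0.80 (SE 0.44, adjusted p = 0.159, edgeR), and within batches it was 2.28 in batch 8995 and 0.00 in batch 9262 on the scale of log2(CPM + 0.5). KO26 against WT gave −0.39 (SE 0.65, adjusted p = 0.774).

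Kcnj13 (chromosome 1, 87309135 to 87322456) was at 8.98, 9.46, 11.9 and 10.98 CPM in WT, 9.07, 8.01 and 5.04 CPM in KO22, and 4.78 and 6.59 CPM in KO26. Both KO26 libraries lay below every WT library, and KO22 overlapped WT. Its log2 fold change was −0.49 (95% CI −0.998 to 0.02, adjusted p = 0.0967) in KO22 and −0.86 (95% CI −1.50 to −0.23, adjusted p = 0.129) in KO26, neither past edgeR's adjusted threshold. An exon of Kcnj13 overlaps Gigyf2 on the opposite strand over 669 bases, and the strand setting of the counting is not stated, so reads there cannot be assigned to either gene.

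Clcn2 (chromosome 16, 20521714 to 20536496), a voltage-gated chloride channel, was at 9.50, 9.67, 11.6 and 10.8 CPM in WT, 5.18, 8.93 and 7.76 CPM in KO22, and 9.61 and 12.3 CPM in KO26. Every KO22 library was below every WT library. The log2 fold change of −0.50 (SE 0.18, adjusted p = 0.0377, edgeR) did not reach the fold limit, nor did that against KO26 (−0.65, adjusted p = 0.0375). Its exons overlap Fam131a and Polr2h on the opposite strand over 1440 and 641 bases.

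Slc16a1 (chromosome 3, 104545811 to 104565780) encodes MCT1, which carries lactate with a proton at the apical membrane of the RPE. It was at 38.4, 22.4, 19.9 and 18.6 CPM in WT, 72.0, 64.4 and 64.1 CPM in KO22, and 57.1 and 34.2 CPM in KO26. The KO22 libraries were all above the others, and the KO26 libraries overlapped WT, whose highest value was the library of batch 8995. In KO22 it differed from WT by a log2 fold change of 1.43 (SE 0.16, 95% CI 1.09 to 1.78, adjusted p = 6.16e-05, edgeR). Within batches it was 0.90 in batch 8995 and 1.64 in batch 9262. In KO26 it was 0.73 (95% CI 0.33 to 1.13, adjusted p = 0.0542), and between the clones 0.71 (adjusted p = 0.017, under the fold limit).

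Slc16a3 (chromosome 11, 120838846 to 120851694) encodes MCT4, a lactate exporter of glycolytic cells. It was at 2.62, 5.42, 4.02 and 5.17 CPM in WT, 66.7, 43.9 and 54.3 CPM in KO22, and 1.72 and 4.16 CPM in KO26. No KO22 library came near the others, and KO26 overlapped WT. Slc16a3 had a log2 fold change of 3.71 in KO22 against WT (SE 0.26, 95% CI 3.13 to 4.29, adjusted p = 4.99e-06) and 4.32 in KO22 against KO26 (SE 0.41, adjusted p = 3.63e-05), both by edgeR. The difference from WT was 4.43 within batch 8995 and 3.21 within batch 9262. In KO26 against WT it was −0.56 (95% CI −1.41 to 0.29, adjusted p = 0.446). Exons of Slc16a3 overlap those of Csnk1d on the opposite strand over 4529 bases, 40.1% of its exonic length.

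Monocarboxylate transporters need a partner glycoprotein, basigin (Bsg) or embigin (Emb), to reach the membrane, and lactate dehydrogenase (Ldha, Ldhb) interconverts pyruvate and lactate. Of 17 other genes of this list tested, 1 was higher (11.4% of all genes) and 4 were lower (13.8%) in KO22 than in WT. Of the 4, Slc5a8 had 5 or more counts in fewer than 3 KO22 libraries, and so was tested only because it was high elsewhere. Nothing is read from these counts. Slc16a9, a carnitine transporter, fell from 34.8 ± 6.13 to 5.20 ± 2.60 CPM (log2 fold change −2.72, adjusted p = 1.11e-05, edgeR). Mpc2, a subunit of the mitochondrial pyruvate carrier, fell by 1.23 on the log2 scale (adjusted p = 0.000219). Ldha was at 631 ± 47.4 CPM in WT, 1285 ± 293 in KO22 and 1190 ± 154 in KO26, and Emb at 96.8 ± 7.26, 216 ± 38.7 and 52.1 ± 5.87 CPM. Neither reached the fold limit against WT: Ldha had log2 fold changes of 0.98 in KO22 (adjusted p = 0.000316) and 0.84 in KO26 (adjusted p = 0.0196), and Emb had 1.13 (adjusted p = 7.69e-05) and −0.95 (adjusted p = 0.0126). Emb was higher in KO22 than in KO26 (log2 fold change 2.08, adjusted p = 1.14e-05). Slc16a10, an aromatic amino acid transporter, was the single gene of the 8 transport lists called in KO26 against WT, at 0.417 ± 0.0646 against 1.99 ± 0.475 CPM (log2 fold change −2.29, adjusted p = 0.0255).

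Atp1b1 (chromosome 1, 164264678 to 164285957) was at 30.5, 49.6, 62.3 and 62.7 CPM in WT, 7.95, 10.9 and 12.0 CPM in KO22, and 78.4 and 97.6 CPM in KO26. The 3 groups did not overlap, and the clones lay on opposite sides of WT. The log2 fold change was −2.24 in KO22 (SE 0.15, 95% CI −2.58 to −1.90, adjusted p = 4.51e-06) and 0.98 in KO26 (95% CI 0.60 to 1.36, adjusted p = 0.0161, under the fold limit). Between the clones it was −3.23 (SE 0.19, adjusted p = 1.86e-06, edgeR), with −3.22 and −3.05 within batches 8995 and 9262. Without KO26 library 2 the increase in KO26 reached the fold limit (1.23, adjusted p = 0.033), in a fit where the single KO26 library left was assumed to vary like the other groups. Exons of Atp1b1 overlap Nme7 and Gm32391 on the opposite strand over 587 and 290 bases.

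The Na,K-ATPase, which in the RPE sits in the apical membrane, pairs an alpha with a beta subunit and a regulator of the FXYD family. Of 7 other such genes tested in KO22, 3 were higher (11.4% of all genes) and 1 lower (13.8%) than in WT. Nothing is read from these counts. Atp1b3, another beta subunit, was at 59.5 ± 13.6 CPM in WT and 204 ± 31.6 in KO22 (log2 fold change 1.78, adjusted p = 4.3e-05, edgeR). The regulator Fxyd5 was at 5.58 ± 2.43 and 106 ± 5.33 CPM (4.25, adjusted p = 6.98e-07). Atp1b2 was low and fell further, from 1.47 ± 0.385 to 0.360 ± 0.212 CPM (log2 fold change −2.14, adjusted p = 0.0023). It had 5 or more counts in fewer than 3 KO22 libraries, and so was tested only because it was high elsewhere. In clone KO26 no gene of this list was called against WT by edgeR.

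Slc12a2 (chromosome 18, 58011164 to 58080812) encodes NKCC1, which brings sodium, potassium and chloride into the cell together. It was at 93.1, 87.7, 119 and 96.4 CPM in WT, 57.2, 83.0 and 84.1 CPM in KO22, and 159 and 191 CPM in KO26. Every KO22 library was below and both KO26 libraries were above every WT library. The clones differed by −1.29 on the log2 scale (KO22 minus KO26, SE 0.17, adjusted p = 0.000253, edgeR), with −1.47 and −1.19 within batches 8995 and 9262. Against WT the log2 fold change was −0.40 in KO22 (adjusted p = 0.0352) and 0.89 in KO26 (adjusted p = 0.0166), both under the fold limit. Without KO22 library 1 the difference between clones was −1.14, just under the fold limit, with an adjusted p of 1.9e-05.

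Of 11 other cation-chloride cotransporters and kinases tested, 1 was higher (11.4% of all genes) and 1 lower (13.8%) in KO22 than in WT. Nothing is read from these counts. Wnk4, a kinase that regulates these cotransporters, fell from 8.86 ± 0.899 to 1.98 ± 0.918 CPM (log2 fold change −2.16, adjusted p = 0.00016, edgeR). Slc12a1, the kidney cotransporter NKCC2, was higher at 1.67 ± 0.0998 against 0.448 ± 0.438 CPM (log2 fold change 2.12, adjusted p = 0.00976, edgeR). Too few WT libraries reached the count needed for testing Slc12a1, and so it was tested only because it was high in KO22.

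Aqp1 (chromosome 6, 55313068 to 55325540), the water channel aquaporin 1, was at 6.48, 40.8, 35.7 and 41.6 CPM in WT, 29.6, 30.6 and 30.3 CPM in KO22, and 13.9 and 24.5 CPM in KO26. The WT library of batch 8995 was far below the other 3 WT libraries, which were above every KO library. The log2 fold change in KO22 was 0.32 (95% CI −0.61 to 1.26, adjusted p = 0.537, edgeR). Without WT library 1 it was −0.39 (adjusted p = 0.00214), so the direction rested on that library, and within batches it was 2.11 in batch 8995 and −0.36 in batch 9262. In KO26 it was −0.30 (95% CI −1.31 to 0.72, adjusted p = 0.756). Of the other aquaporins only Aqp11 was tested in mRPE, at 6.94 ± 1.61 CPM in WT and 5.70 ± 1.01 in KO22.

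**Figure D3:**
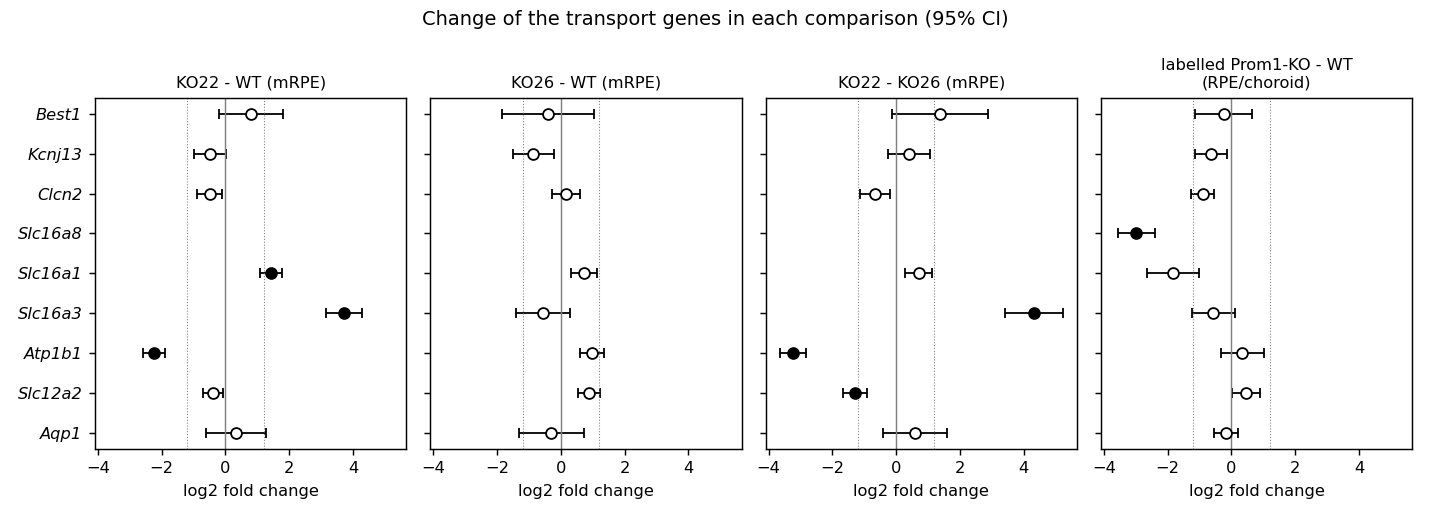
log2 fold change of each transport gene with its 95% confidence interval (edgeR) in 4 comparisons. Filled points were called (adjusted p under 0.05 and log2 fold change past the dotted lines at 1.2 in either direction), open points were not. Atp1b1 is called at −2.24 in KO22 and is at 0.98 in KO26, and Slc16a8, shown for tissue alone, is at −2.98.

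The wider transport lists were chosen with earlier results of these data known, and their counts in KO22 stand beside 11.4% higher and 13.8% lower over all genes tested. Of 20 other genes tested in the chloride channel list, not all of which encode channels, 4 were higher and 0 lower than in WT by edgeR. Clcn5, an endosomal chloride and proton exchanger, went from 26.6 ± 0.653 to 88.0 ± 12.8 CPM (log2 fold change 1.70, adjusted p = 3.15e-06), Clca1 from 1.12 ± 0.479 to 9.96 ± 2.04 CPM (3.25, adjusted p = 3.07e-05) and Ano1, a calcium-activated chloride channel, from 1.05 ± 0.171 to 4.95 ± 1.46 CPM (2.22, adjusted p = 0.000109). The median of this list was 0.26 on the log2 scale, against −0.03 for all genes tested. Of 13 potassium channel genes, 8 were higher and 2 lower, but 4 of the 8 (Kcnq5, Kcnj8, Kcnk6 and Kcnj16) and 1 of the 2 (Kcnma1) had 5 counts in fewer than 3 libraries of the group in which they were lower, and so were tested only because they were high elsewhere. Nothing is read from these counts. Kcnn4, a calcium-activated potassium channel, went from 0.402 ± 0.208 to 22.1 ± 1.63 CPM (log2 fold change 5.88, adjusted p = 6.67e-07), Kcnj2 from 5.38 ± 0.524 to 21.0 ± 1.83 CPM (1.96, adjusted p = 1.03e-05) and Kcnma1, the BK channel, from 15.8 ± 5.53 to 0.71 ± 0.496 CPM (−4.37, adjusted p = 1.59e-05).

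Of 21 bicarbonate and pH transport genes, 2 were higher and 6 lower in KO22. Slc4a4, the sodium bicarbonate cotransporter NBCe1, fell from 375 ± 24.6 to 85.2 ± 26.9 CPM (log2 fold change −2.21, adjusted p = 4.52e-06, edgeR), and Slc9a7, a sodium proton exchanger, from 2.45 ± 1.19 to 0.106 ± 0.123 CPM (−4.16, adjusted p = 9.65e-05). Slc4a8, another sodium bicarbonate transporter, was higher at 2.23 ± 0.816 against 0.191 ± 0.0816 CPM (3.58, adjusted p = 3.76e-05). Slc4a8 and Slc9a7 had 5 or more counts in fewer than 3 libraries of their lower group, and so were tested only because they were high elsewhere. Of 10 calcium channel genes, 2 were higher and 4 lower. The L-type channel Cacna1c fell from 107 ± 15.7 to 36.9 ± 5.42 CPM (−1.50, adjusted p = 8.45e-06), Cacna2d3 from 12.4 ± 8.84 to 0.113 ± 0.195 CPM (−6.20, adjusted p = 3.4e-05) and Cacnb1 from 7.54 ± 2.44 to 2.50 ± 0.667 CPM (−1.50, adjusted p = 0.000246). The same limit holds for Cacna2d3 among the lower and Cacna1h among the higher genes, and nothing is read from these counts. In KO26 against WT no gene of these 4 lists was called by edgeR, and over all 8 lists DESeq2 called 1 gene higher and 2 lower.

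Between the clones the same lists held 4 higher and 0 lower of 20 chloride channel genes, 5 and 4 of 14 potassium channel genes, 2 and 2 of 17 monocarboxylate genes, 3 and 0 of 7 Na,K-ATPase genes, 1 and 1 of 11 cotransporter genes, 1 and 5 of 21 bicarbonate genes and 1 and 2 of 10 calcium channel genes. Over all genes tested 7.56% were higher and 10.7% lower, and nothing is read from these counts. Of the most strongly called, Kcnn4 differed by 5.88 (adjusted p = 4.19e-06), Kcnma1 by −4.41 (adjusted p = 4.63e-05), Kcnj2 by 1.68 (adjusted p = 0.000322) and Fxyd5 by 4.64 (adjusted p = 2.63e-06) on the log2 scale, KO22 minus KO26 by edgeR. Other genes of this kind were Clcn5 (1.37, adjusted p = 6.58e-05), Clca1 (2.98), Lrrc8e (2.61), Slc16a9 (−2.61, adjusted p = 3.28e-05) and Slc16a10 (3.56), and Atp1b3 (1.72) in the Na,K-ATPase list. The bicarbonate list was led by Car2 (−2.99), Slc4a3 (−2.07) and Slc9a9 (−3.01), the calcium list by Cacna2d3 (−5.15), Cacna1g (−2.71) and Cacnb2 (2.54), and the cotransporter list by Wnk4 (−2.17) and Slc12a1 (3.06). Kcnma1 and Cacna2d3 had 5 or more counts in fewer than 3 KO22 libraries. Slc12a1 was at 0.139 to 0.231 CPM in KO26 and had 5 or more counts in fewer than 3 WT libraries. It was tested only because it was high in KO22.

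Counts of markers called in KO22 against WT stand beside 11.4% higher and 13.8% lower over all genes tested, and some marker lists are left out. Of 3 RPE markers tested, Mitf was called higher (log2 fold change 1.41, adjusted p = 0.0055, edgeR). Rdh5 (−1.135) and Pmel (−0.4) were not called. Between the clones Mitf differed by 2.97 (KO22 minus KO26, adjusted p = 0.000638, edgeR). Markers of other cell types also differed between the mRPE groups. Fibroblast and sclera markers summed to 13600 to 18090 CPM in WT, 5578 to 8675 in KO22 and 20080 to 22280 in KO26, with 5 of 7 tested called lower in KO22 than in WT. Smooth muscle and pericyte markers summed to 962.5 to 2047 CPM in WT and 271 to 392 in KO22 (4 of 6 lower, 1 higher), with 1236 to 2280 CPM in KO26. Endothelial markers summed to 153.5 to 238 CPM in WT, 4.89 to 6.76 in KO22 and 57.7 to 75.9 in KO26, a sum made almost entirely of Kdr (177 ± 38.7 CPM in WT), while the 6 markers tested had 3 positive and 3 negative log2 fold changes in KO22 and a median of 0.09 (2 called lower, 1 higher). Their part in the changes of Slc16a1, Slc16a3 and Atp1b1 was not tested.

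In RPE/choroid the libraries labelled Prom1-KO were compared with WT to ask how the same genes stood in tissue. Slc16a8, which encodes MCT3, the lactate transporter of the RPE basolateral membrane, fell by 7.87-fold. It was the 1 of 9 members called lower, against 0.189% of 24926 genes. No member was called higher by edgeR's quasi-likelihood test, and of all genes 0% were, with 993 higher (3.98%) and 1075 lower (4.31%) at an unadjusted p under 0.05. At that unadjusted level 1 member was higher and 4 were lower. DESeq2 called 0 members higher and 2 lower, Slc16a8 and Slc16a1, with 84 genes higher and 189 lower in all. The members' median log2 fold change was −0.57, and that of all genes tested 0.01.

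Slc16a8 (chromosome 15, 79135214 to 79138964) was at 27.5, 20.0 and 24.4 CPM in WT and 2.58, 4.07 and 2.42 CPM in the libraries labelled Prom1-KO. The groups were far apart. The log2 fold change was −2.98 (SE 0.24, 95% CI −3.55 to −2.41, adjusted p = 0.00692, edgeR). It was −3.26 to −2.86 with any 1 library left out, with adjusted p-values of 0.0267 to 0.0495, and −2.86 without labelled Prom1-KO library 3, whose mitochondrial share was high.

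Slc16a1 was at 24.0, 13.2 and 24.4 CPM in WT and 6.64, 7.22 and 3.28 CPM in the libraries labelled Prom1-KO, again without overlap. Its log2 fold change of −1.84 (SE 0.35, 95% CI −2.66 to −1.02) had an adjusted p of 0.149 by edgeR and 4.16e-05 by DESeq2, so the call depended on the test. In KO22 cells the same gene was higher than in WT, by 1.43 on the log2 scale, in a separate table, and the difference between cells and tissue was not tested. Slc16a3 was low in tissue, at 0.982, 0.913 and 1.34 CPM in WT and 0.582, 0.718 and 0.895 CPM in the libraries labelled Prom1-KO. Its log2 fold change was −0.57 (95% CI −1.25 to 0.11, adjusted p = 0.682).

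**Figure D4:**
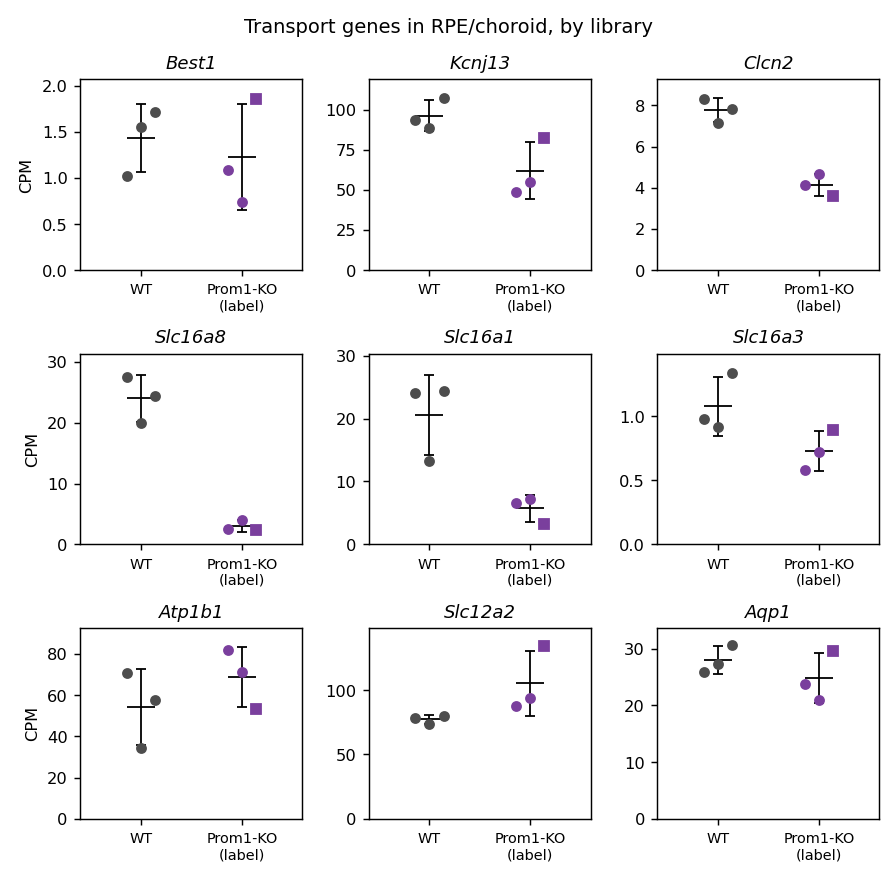
CPM (linear axis) of the 9 transport genes in each RPE/choroid library, WT and labelled Prom1-KO, with the group mean ± SD (n = 3 each). Squares mark labelled Prom1-KO library 3, in which 84.2% of counts were mitochondrial. Slc16a8 lies at 20.0 to 27.5 CPM in WT and 2.42 to 4.07 CPM in the labelled Prom1-KO libraries, and Aqp1, Atp1b1 and Best1 overlap between the groups.

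Of the channels, Clcn2 was at 8.30, 7.14 and 7.84 CPM in WT and 4.15, 4.69 and 3.61 CPM in the libraries labelled Prom1-KO. All of the latter were lower. This gave a log2 fold change of −0.90 (95% CI −1.26 to −0.54, adjusted p = 0.102 by edgeR and under the fold limit). Kcnj13 was at 93.2, 88.6 and 107 CPM in WT and 48.5, 55.0 and 82.4 CPM in the libraries labelled Prom1-KO, also without overlap (log2 fold change −0.64, 95% CI −1.14 to −0.13, adjusted p = 0.47). Best1 was near 1 CPM in both groups, at 1.02, 1.56 and 1.72 CPM and 1.09, 0.735 and 1.86 CPM, which overlapped (−0.25, 95% CI −1.14 to 0.65, adjusted p = 0.912).

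Slc12a2 was at 78.2, 73.3 and 80.1 CPM in WT and 87.4, 94.1 and 134 CPM in the libraries labelled Prom1-KO. The groups did not overlap, and the highest value was that of labelled Prom1-KO library 3 (log2 fold change 0.45, 95% CI 0.01 to 0.88, adjusted p = 0.588, edgeR). Atp1b1 was at 70.8, 34.3 and 57.4 CPM and 81.9, 71.3 and 53.1 CPM (0.35, 95% CI −0.32 to 1.01, adjusted p = 0.81). Aqp1 was at 25.9, 27.2 and 30.7 CPM and 23.8, 21.0 and 29.7 CPM (−0.17, 95% CI −0.55 to 0.20, adjusted p = 0.842). Both overlapped between the groups.

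In the 8 wider transport lists a single gene was called in tissue by edgeR. Car12, a membrane carbonic anhydrase, fell from 42.2 ± 4.29 to 9.91 ± 3.64 CPM (n = 3 each, log2 fold change −2.09, adjusted p = 0.0357). Of 28 bicarbonate genes tested it was the 1 lower, and 0 were called of 23 chloride channel, 24 potassium channel, 19 monocarboxylate, 12 Na,K-ATPase, 13 cotransporter, 7 aquaporin and 13 calcium channel genes. DESeq2 called 1 of all these list genes higher and 3 lower. The MCT partner Bsg was at 97.4 ± 20.8 CPM in WT and 92.5 ± 3.69 in the libraries labelled Prom1-KO, and Ldha at 77.9 ± 17.7 and 102 ± 20.7 CPM (adjusted p = 0.951 and 0.706).

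Some RPE marker genes fell with Slc16a8. Against 0.189% of all genes lower and 0% higher, 4 of the 14 tested were lower and 0 higher by edgeR. These were Rpe65, the isomerohydrolase of the visual cycle (257 ± 46.2 to 3.86 ± 2.48 CPM, log2 fold change −6.06, adjusted p = 0.0191), Lrat, which makes its substrate (−3.43, adjusted p = 0.00445), Rgr, a retinal opsin (−5.23, adjusted p = 0.0242) and Rdh5, a retinol dehydrogenase (−2.10, adjusted p = 0.0242). The pigment genes Tyr, Dct, Tyrp1 and Pmel had log2 fold changes of 0.31, 0.37, −0.16 and −0.15 (adjusted p = 0.739 to 0.881). Ttr (−3.015), Rlbp1 (−2.07), Mitf (−0.82), Otx2 (−0.667), Krt18 (−0.233) and Krt8 (−0.04) were not called either (adjusted p = 0.0709 to 0.991, edgeR). The summed RPE marker level was 2671 to 3645 CPM in WT and 1295 to 1480 CPM in the libraries labelled Prom1-KO.

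Markers of other cell types were present in both groups. Endothelial markers summed to 105 to 213 CPM in WT and 73.6 to 94.4 CPM in the libraries labelled Prom1-KO. Of these 0 of 8 were called, but all 8 had negative log2 fold changes (median −0.763). Photoreceptor markers summed to 40.0 to 1133 and 20.0 to 542.5 CPM, fibroblast and sclera markers to 1038 to 2094 and 925 to 2032 CPM, and skeletal muscle markers to 282 to 874 and 59.2 to 778.5 CPM. All 8 fibroblast and sclera markers (median −0.30) and all 7 skeletal muscle markers (median −0.594) had negative log2 fold changes, with sums that overlapped between the groups. Müller glia markers summed to 529 to 780 and 581 to 910 CPM, mostly Apoe and Glul, but all 6 had positive log2 fold changes (median 1.085). Of these Slc1a3 (2.23 to 7.75 CPM in WT and 14.5 to 31.4 CPM in the libraries labelled Prom1-KO, log2 fold change 2.04, adjusted p = 0.222), Kcnj10 (0.505 to 2.07 and 3.15 to 6.56 CPM, 2.07, adjusted p = 0.286) and Dkk3 (88.7 to 145.7 and 149.8 to 198.5 CPM, 0.69, adjusted p = 0.437) did not overlap between the groups. Melanocyte and Schwann cell markers summed to 101 to 129 and 104 to 313 CPM, macrophage and leukocyte markers to 268 to 339 and 224 to 314 CPM, and erythrocyte markers to 39.8 to 72.7 and 14.9 to 115 CPM. Smooth muscle and pericyte markers summed to 374 to 447 and 348 to 399 CPM, and ciliary and iris epithelium markers to 147 to 254.5 and 147 to 304 CPM. None of these lists had a gene called by edgeR, and their part in the fall of Slc16a8 was not tested.

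**Figure D5:**
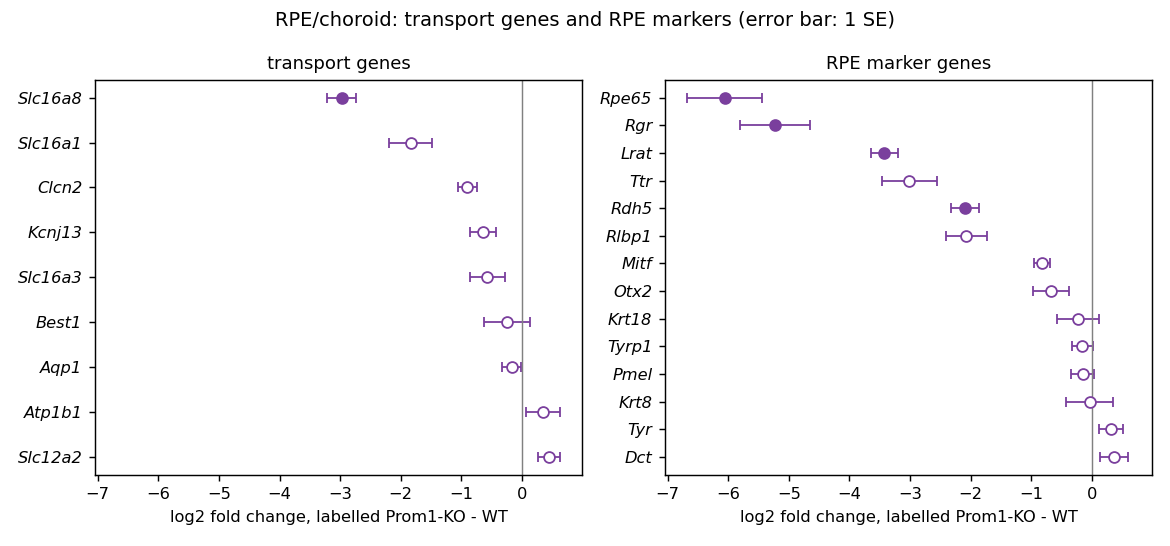
log2 fold change of the transport genes (left) and of 14 RPE marker genes (right) in RPE/choroid, labelled Prom1-KO minus WT, with 1 SE (edgeR). Filled points were called. Slc16a8 is at −2.98, and the 4 RPE markers called are Rpe65 (−6.06), Rgr (−5.23), Lrat (−3.43) and Rdh5 (−2.10). Ttr (−3.015) was not called. Slc12a2 is at 0.45 and Atp1b1 at 0.35. The pigment genes Dct, Tyr, Tyrp1 and Pmel are at 0.37, 0.31, −0.16 and −0.15.

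The genes whose pattern over libraries was most like that of each member were those with the smallest root mean square difference in centred log2(CPM + 0.5). Over the 9 mRPE libraries these were Samd11, Hmgn1 and Hspa9 for Slc16a1 (differences of 0.10, 0.10 and 0.12), Hgf, Slco2a1 and Cyp1a1 for Slc16a3 (0.26, 0.28 and 0.31), Cdon, Htra3 and Egfr for Atp1b1 (0.26, 0.27 and 0.28) and Spsb2, Cfap74 and Slc2a9 for Slc12a2 (0.17, 0.17 and 0.18). Over the 6 RPE/choroid libraries they were Tshr, Jakmip2 and Myrf for Slc16a8 (0.20, 0.21 and 0.22) and Dusp4, Rlbp1 and Gm12224 for Slc16a1 (0.16 to 0.17). Rlbp1, the retinaldehyde-binding protein, is also an RPE marker. The nearest to Clcn2 in tissue was Wnk4 (0.07), and the second to Atp1b1 was Nme7 (0.12), which overlaps it on the opposite strand.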

How the data were processed

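Reads were trimmed, aligned to mm39 and counted per gene by the authors, with Trim Galore 0.6.7, STAR and DESeq2 1.42.0 named in the submitters' processing notes, and genes with low counts were left out before deposit. The raw counts deposited by the authors were analysed as they stood. The normalized signal values deposited by the authors are the counts divided by 1 size factor per library and were not used in tests. The paper names a TruSeq and the labels an NEB stranded kit, and the strand setting of the counting is not given in the sources used here. Genes without a symbol held 0.026% to 0.303% of counts per library and were not removed before the tests or the adjustment.

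Libraries were grouped by their labels. A gene was tested where 3 or more libraries had 5 or more counts. The test was edgeR's quasi-likelihood test (edgeR 4.0.16, R 4.3.3) with TMM scaling and Benjamini-Hochberg adjustment over all genes, and a call needed an adjusted p below 0.05 and a log2 change past 1.2 in either direction. Comparisons were KO22 against WT over 7 libraries, KO26 against WT and against KO22 over 9, each with batch as a term, and RPE/choroid over 6. SE is the absolute log2 fold change over the square root of F. CPM used TMM scaling, and within-batch differences (an alternative chosen after seeing the data) used a pseudocount of 0.5 CPM. Between replicate libraries the counts differed by more than sampling noise (chi-square per degree of freedom of at least 4.80). The methods were tested on simulated data with 200 genes changed by 2 on the log2 scale and no batch difference. The calls recovered 168 of these for KO22 against WT, 107 for KO26 against WT, 126 between the clones and 107 for RPE/choroid. False calls were 8, 4, 6 and 7 in the same order.

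Every member was named in every comparison, with, for each list and comparison, the 3 called genes of smallest adjusted p and, for members with a mean of at least 1 CPM, the 3 most similar genes, of which a selection is given. Other list genes in the text (Ldha, Emb, Bsg, Aqp11) were picked after their values were seen, and some genes that the rule names are not reported here. The members and lists were chosen with earlier results of these data known. Gene positions are those of GENCODE on GRCm39, matched by gene ID for 20737 of 20910 genes in mRPE and 24826 of 25038 in RPE/choroid. Alternatives were DESeq2's size factors and test, no filter and filterByExpr, no fold limit, no batch term, other sets of libraries, both clones as 1 group, no mitochondrial genes in RPE/choroid, and each library left out in turn.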

Additional observations from a re-analysis of the deposited data

Results flagged for a closer look

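In WT mRPE, Aqp1 was at 6.48 CPM in the library of batch 8995, and its gap to the nearest of the other 3 took 0.832 of the group's range, above Dixon's 95% critical value for 4 libraries. Chance gives such a gap in about 1 of 20 groups. Between the clones, by edgeR's quasi-likelihood test of KO22 minus KO26, the difference itself passed the threshold for Slc16a3 (log2 fold change 4.32, adjusted p = 3.63e-05), Atp1b1 (−3.23, adjusted p = 1.86e-06) and Slc12a2 (−1.29, adjusted p = 0.000253). Slc16a3 was higher in 3 of 3 KO22 libraries than in both KO26 libraries, and Atp1b1 and Slc12a2 were lower in 3 of 3. What sets the clones apart was not tested.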

How the results depend on the processing

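Of 476 member values under the other settings, 455 kept their direction and their side of the threshold, 9 newly passed it, 3 no longer did and 9 changed sign, none of these 9 being called in the reported test. With no fold limit 3 members were lower in KO22 than in WT (26.1% of all genes), 2 were higher in KO26 than in WT (2.36%) and 2 were higher in KO22 than in KO26 (16.3%), and the list genes came to 34 higher in KO22 (21 with the limit), 2 higher and 5 lower in KO26, and 23 lower in KO22 than in KO26. With both clones as 1 group Slc16a1 was the 1 member higher than in WT (1.204, adjusted p = 0.0281) and 0 were lower. There Slc16a3 had 3.07 (adjusted p = 0.0878, not called), Atp1b1 −0.24 (adjusted p = 0.856) and Slc12a2 turned to 0.23. DESeq2 called 1 list gene higher and 2 lower in KO26, and in RPE/choroid 2 members lower and 1 list gene higher and 3 lower. Leaving out each library in turn gave 0 to 1 members higher in KO26 than in WT, 1 to 2 higher and 1 to 2 lower in KO22 than in KO26, with 2 higher called without KO26 library 2 (Best1, 2.68), where the single KO26 library left was assumed to vary like the other groups and KO22 library 1 alone was high. Aqp1 in KO22 against WT turned to −0.04 without the batch term and ranged from −0.39 to 0.65 with each library left out. In KO26 against WT it turned to 0.015 with WT and KO26 libraries alone and ranged from −0.90 to 0.037, and between the clones from −0.26 to 0.81. Best1 ranged from −1.89 to 0.56 in KO26 against WT and from −0.67 to 0.029 in RPE/choroid. The cause of these shifts was not tested. Batch, the only label that mRPE libraries of different groups share, was a term in the reported tests, and no finer pairing was made. KO26 has 2 libraries and was compared with less precision, and Best1 in tissue and Slc16a3 in tissue lie near 1 CPM.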
